A study of Arabidopsis thaliana with 6 samples.

Results

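Glucosinolates are sulfur-rich defence compounds of the cabbage order, and in Arabidopsis they are built from methionine (the aliphatic class) or from tryptophan (the indolic class). Chain elongation of the amino acid, formation of the core structure with attachment of a glucose, and changes of the side chain follow each other. Myrosinases are beta-glucosidases that release the toxic products when tissue is damaged, and the beta-glucosidase PYK10 is stored in ER bodies, compartments of the endoplasmic reticulum. Jacalin-related lectins lie outside the ER bodies and form large complexes with PYK10 when cells are broken.

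The genes described here were 5 of the 13356 genes with a probe set that the platform annotation pairs with a single gene. They were BCAT4 and AT2G31790 of glucosinolate synthesis, the beta-glucosidase genes PYK10 and BGLU25, and the jacalin-lectin gene AT1G52000. Each had 1 such probe set, so the rule of taking the brightest probe set left nothing to choose. The genes were chosen from results of this same WT and 35S::KLU contrast, so their differences are given as a description, with no p-value.

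The samples were shoots of Col-0 seedlings at growth stage 1.03, each a pool of 5 plants, hybridised to Affymetrix ATH1 arrays. The wild type (WT) had 3 arrays, and so had 35S::KLU, in which the strong, broadly active 35S promoter drives KLU, a gene for the cytochrome P450 CYP78A5 that promotes organ growth. The replicates came from independent experiments in which the genotypes shared plates, no treatment was given, and the number of transgenic lines behind 35S::KLU was not given in the sources used here. With 0 single-gene probe sets for KLU in the annotation, the transgene was not checked. Values are the log2 levels deposited by the authors, every ± is an SD of 3 arrays, and a difference is 35S::KLU minus WT on the log2 scale with its limma standard error (SE). The threshold was a limma adjusted p of 0.05, corrected over all 22746 probe sets, of which 8.32% were past it. Arrays are called by their replicate number, as WT array 1. A fit with that number as a block (the replicate block) is given where it changed a call, since the genotypes shared plates within an experiment.

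AT1G52000 differed most, at 6.06 times the WT level in 35S::KLU, and BCAT4, PYK10 and BGLU25 were 1.37, 1.34 and 1.26 times the WT level. AT2G31790 was at 1.08 times. The values of the genotypes did not overlap for 4 of the 5 genes, all higher in 35S::KLU, where 10.2% of all genes showed this. By limma 3 of the 5 (AT1G52000, BCAT4 and BGLU25) were past the threshold, all higher, against 3.51% of all genes higher, 3.34% lower and 6.85% in either direction. With the replicate block 3 of the 5 were also past it, with PYK10 in place of BGLU25. The shares above are from the fit without the block. With the block 1279 of the 22746 probe sets were past the threshold, against 1893 without it. Nothing is read from these counts and shares, since the contrast served to choose the genes. The median difference of the 5 was 0.43 beside -0.02 over all genes, and 4 of them lay above the 95th percentile of all genes, which was 0.29.

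**Figure D1:**
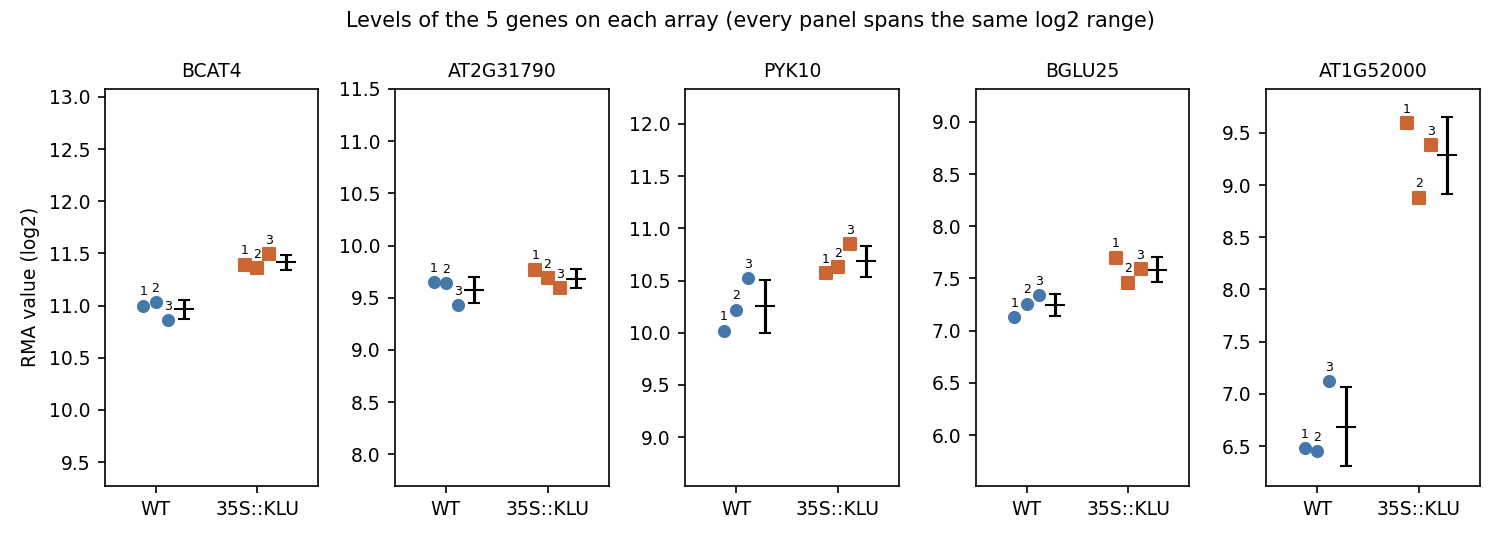
Each panel plots the log2 RMA value (vertical axis) of 1 gene on the 3 WT arrays (circles) and the 3 35S::KLU arrays (squares), numbered by replicate, with the mean and SD as a bar beside them. AT1G52000 shows the widest gap between genotypes, from 7.12 to 8.88, while the values of AT2G31790 overlap.

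BCAT4 encodes the aminotransferase that starts the chain elongation of methionine in aliphatic glucosinolate synthesis. Its log2 level was 11.00, 11.03 and 10.86 in WT and 11.39, 11.36 and 11.49 in 35S::KLU. All 35S::KLU arrays were higher than all WT arrays, by a gap of 0.33. The means were 10.96 ± 0.09 and 11.41 ± 0.07, a difference of 0.45 (SE 0.08). By size of rise BCAT4 ranked 271 among 13356 genes.

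AT2G31790 is the other synthesis gene, listed here with the UGT74 glucosyltransferase genes. Its level was 9.65, 9.64 and 9.43 in WT and 9.77, 9.69 and 9.59 in 35S::KLU. The lowest 35S::KLU array lay below 2 of the WT arrays, so the groups overlapped. The difference was 0.11 (SE 0.09), which was smaller than the SD of 0.12 among the WT arrays.

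PYK10 encodes the main beta-glucosidase of ER bodies, an enzyme that can also hydrolyse indolic glucosinolates. Its level was 10.02, 10.22 and 10.52 in WT and 10.57, 10.63 and 10.85 in 35S::KLU. The genotypes were apart by only 0.04, between WT array 3 and 35S::KLU array 1. The WT arrays spread more (10.25 ± 0.26) than those of 35S::KLU (10.68 ± 0.15), the difference was 0.43 (SE 0.13), and it was not past the threshold over all 6 arrays. With the replicate block the same difference was past the threshold. Dropping WT array 3 made it 0.56 and past the threshold, and dropping WT array 1 made it 0.31 and not past.

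BGLU25 is a beta-glucosidase gene of the same subgroup as PYK10. Its level was 7.13, 7.26 and 7.34 in WT and 7.70, 7.46 and 7.59 in 35S::KLU. The groups did not overlap, with a gap of 0.12, and the means were 7.25 ± 0.11 and 7.58 ± 0.12. The difference of 0.33 (SE 0.09) was past the threshold with all arrays but not with the replicate block, and the call held when 35S::KLU array 2 was dropped (0.39). Dropping any of the other 5 arrays ended the call, at differences from 0.28 to 0.38.

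AT1G52000, named a jacalin-lectin gene, had log2 levels of 6.48, 6.45 and 7.12 in WT and 9.59, 8.88 and 9.38 in 35S::KLU. WT array 3 was the highest of WT and 35S::KLU array 2 the lowest of its genotype, and still 1.76 lay between them. The means were 6.68 ± 0.38 and 9.29 ± 0.37. The difference of 2.60 (SE 0.21) ranked 2 among all 13356 genes by size of rise, and it lay between 2.45 and 2.82 on leaving out each array in turn.

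**Figure D2:**
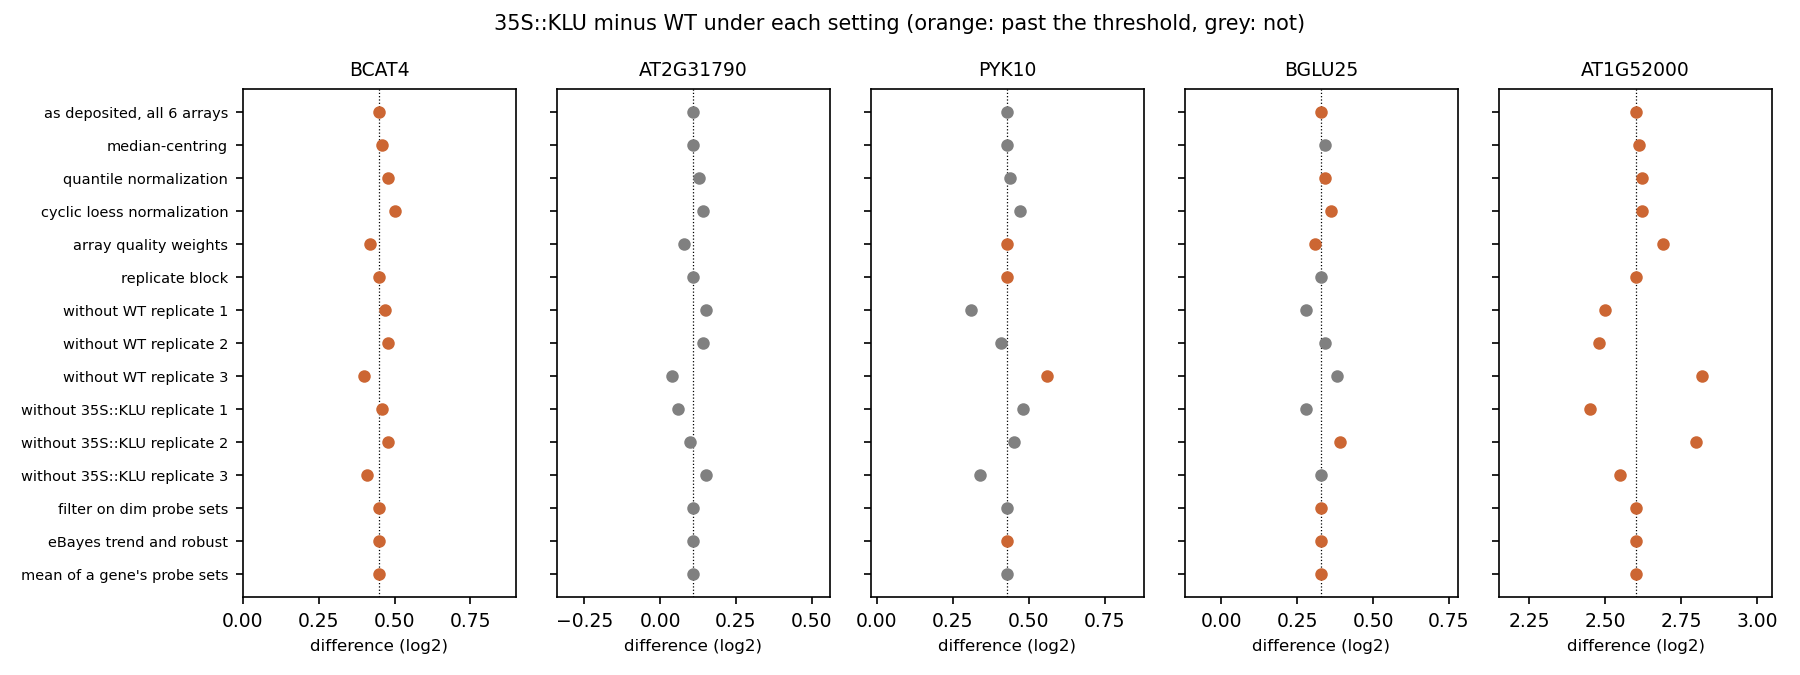
Each panel plots the difference 35S::KLU minus WT (log2, horizontal axis, all panels equally wide) of 1 gene under every processing setting (rows), orange where limma's adjusted p was under 0.05 and grey where not, with a dotted line at the value from all 6 arrays as deposited. AT1G52000 and BCAT4 are orange in every row, AT2G31790 in none, and PYK10 and BGLU25 change colour between rows.

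The wider pathway was described with gene lists drawn up by locus from general knowledge of it. A list gene is called measured where the annotation gave it a single-gene probe set. Other genes may still have a probe set on the array that the annotation pairs with no gene or with several. Earlier results of these data were known by then, so adjusted p-values of list genes are a description and no independent support. Beside each list count stand the shares over all genes, of which 3.51% were past the threshold and higher and 3.34% lower. Of 28 genes of aliphatic glucosinolate synthesis 6 had a listed probe set, and beside BCAT4 and AT2G31790 these were 4, of which 2 rose, 0 fell and 2 did not pass the threshold (median difference 0.21). GSTU20, a glutathione transferase gene on this list, had levels of 12.32, 12.18 and 12.22 in WT and 12.62, 12.66 and 12.63 in 35S::KLU, and it rose 1.32-fold (difference 0.40, SE 0.07, limma adjusted p = 0.0077). AT2G25450 rose 1.23-fold (11.03, 10.99 and 10.94 against 11.24, 11.30 and 11.29, limma adjusted p = 0.027). For each of these genes all 35S::KLU arrays were above all WT arrays. The call of AT2G25450 ended with the replicate block (limma adjusted p = 0.078) and when array 2 or 3 of either genotype was dropped (from 0.086 to 0.099), while its difference stayed between 0.27 and 0.31.

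UGT74B1, which encodes an S-glucosyltransferase of the core structure, differed by 0.13 (SE 0.09, limma adjusted p = 0.50), and AOP3, a dioxygenase gene of side-chain modification, by -0.21 (SE 0.09, limma adjusted p = 0.22). The genotypes overlapped for both genes. With the 2 synthesis genes above counted, the list held BCAT4, GSTU20 and AT2G25450 past the threshold and AT2G31790, UGT74B1 and AOP3 not past it. Indolic synthesis (0 of 12 listed genes with a single-gene probe set), sulfur activation and supply (0 of 11) and the classical myrosinases with their specifier proteins (0 of 16) were not analysed here. The name of the group therefore rests, for myrosinases, on PYK10, BGLU25 and the lectin gene and on no classical myrosinase.

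Among 17 regulators and transporters of glucosinolates 5 had a listed probe set, of which 0 rose, 1 fell and 4 did not pass. The gene that fell was GTR2, which encodes a transporter that loads glucosinolates into the phloem. Its levels were 7.85, 7.67 and 7.69 in WT and 7.36, 7.20 and 6.97 in 35S::KLU, with every 35S::KLU array below every WT array. The share of all genes without overlap was counted only for higher values (10.2%). It was 1.47-fold lower (difference -0.56, SE 0.10, limma adjusted p = 0.010), and the difference lay between -0.65 and -0.46 when each array was left out in turn, always past the threshold. GTR1, also a transporter gene on this list, had a mean of 7.82 in both genotypes (difference 0.00, SE 0.07, limma adjusted p = 0.99). MYC3, a transcription factor gene of jasmonate signalling that acts on glucosinolate genes, differed by 0.29 (SE 0.14, limma adjusted p = 0.26).

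**Figure D3:**
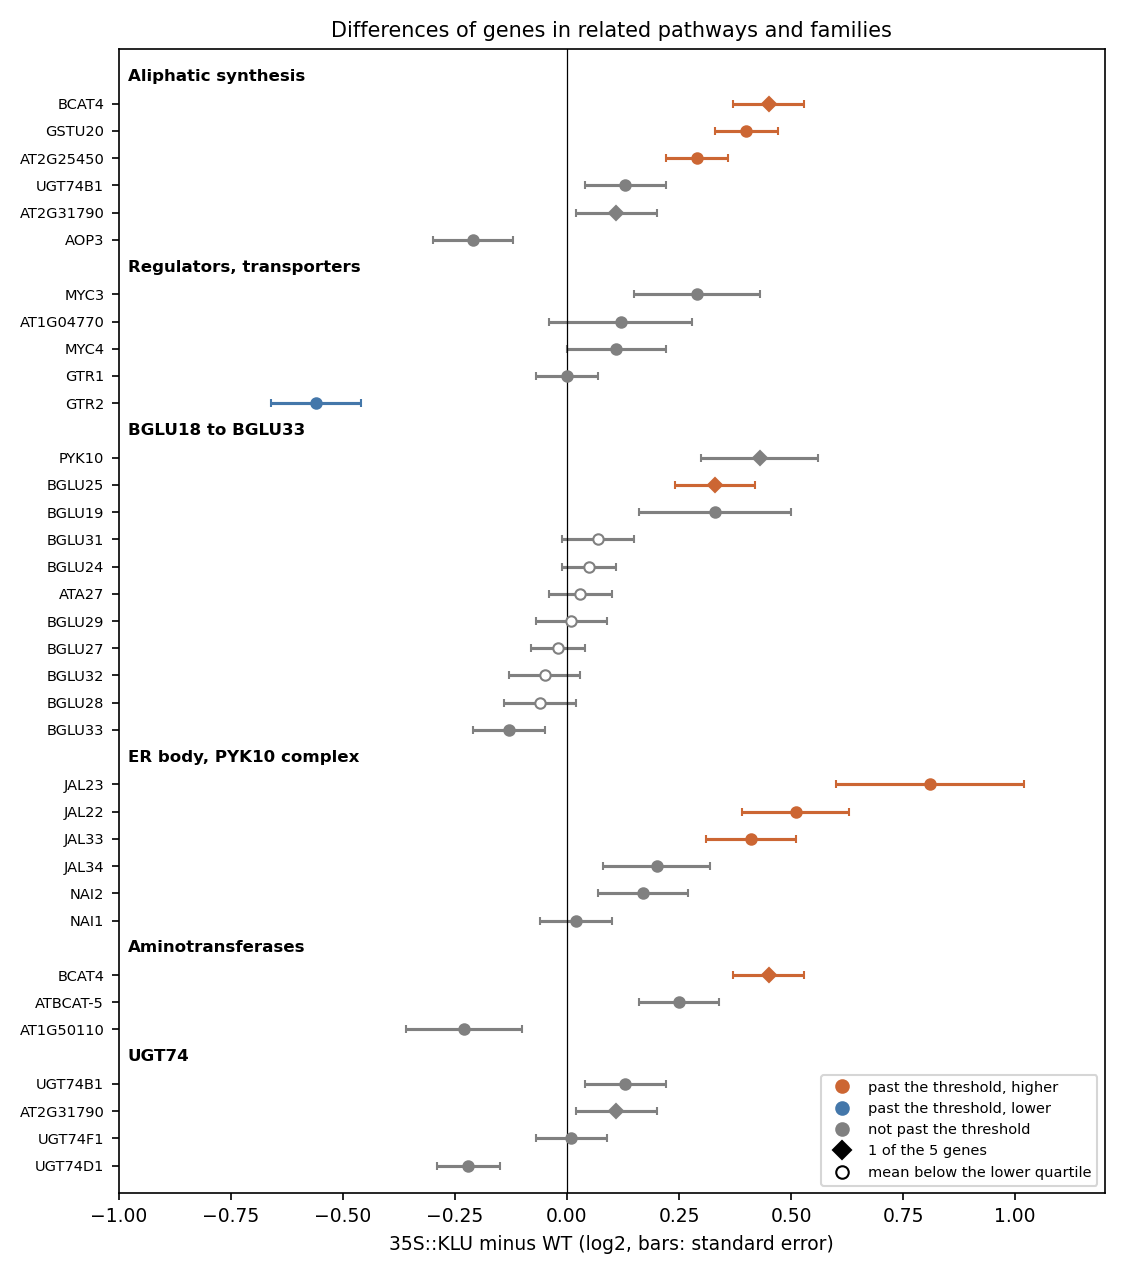
Each point is the difference 35S::KLU minus WT (log2, horizontal axis, bars are the limma SE) of 1 gene, grouped by list, with orange and blue for genes past the threshold, diamonds for genes among the 5 and open symbols for genes whose mean over 6 arrays lay below the lower quartile. JAL22, JAL23 and JAL33 of the PYK10 complex list and GTR2 lie farther from 0 than most of the others.

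Members of the beta-glucosidase subgroup BGLU18 to BGLU33 other than PYK10 and BGLU25 were mostly dim. Of these 14 listed genes 9 were measured and 0 were past the threshold, beside 6.85% of all genes in either direction. Of the 9 measured, 7 had a mean below 4.09, the lower quartile of all values, where RMA understates changes. The 2 brighter ones were BGLU33, with a difference of -0.13 (SE 0.08, limma adjusted p = 0.37), and BGLU19, with 0.33 (SE 0.17, limma adjusted p = 0.29). BGLU19 had a level of 5.25 in 35S::KLU array 2 and levels from 4.40 to 4.76 on the other arrays. In the rest of the beta-glucosidase family (BGLU1 to BGLU17 and BGLU40 to BGLU46) 9 of 21 listed genes were measured, of which 0 rose and 1 fell. BGLU16 was 1.31-fold lower (7.44, 7.69 and 7.61 against 7.20, 7.23 and 7.15, limma adjusted p = 0.017), with no overlap. Dropping WT array 2, WT array 3 or 35S::KLU array 3 ended that call (limma adjusted p from 0.058 to 0.086), while the difference lay between -0.46 and -0.34 over all single arrays dropped. BGLU44 differed by 0.23 (SE 0.08, limma adjusted p = 0.14).

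The list of genes for ER body formation and the PYK10 complex had 6 of 14 genes measured, of which 3 rose, 0 fell and 3 did not pass (median difference 0.30). The 3 that rose all encode jacalin-related lectins. JAL22 had levels of 8.32, 8.23 and 8.68 in WT and 8.98, 8.74 and 9.04 in 35S::KLU, and rose 1.42-fold (difference 0.51, SE 0.12, limma adjusted p = 0.035). JAL33, at 7.58, 7.65 and 7.68 against 7.90, 8.28 and 7.95, rose 1.33-fold (difference 0.41, SE 0.10, limma adjusted p = 0.038). JAL23 was dim in WT, at 4.36, 3.99 and 3.82, and stood at 5.32, 4.42 and 4.84 in 35S::KLU, a 1.75-fold rise (difference 0.81, SE 0.21, limma adjusted p = 0.045). None of the 3 had overlapping groups, though JAL22 and JAL23 each came close, at 8.68 against 8.74 and at 4.36 against 4.42.

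These 3 calls depended on single arrays. The differences without 1 array lay between 0.42 and 0.64 for JAL22, 0.57 and 1.03 for JAL23 and 0.29 and 0.48 for JAL33. Since the groups did not overlap, dropping 1 array could not turn their sign. With 5 arrays the count over all probe sets changed too, from 1893 to between 906 and 1962. The replicate block ended the call of JAL33 (difference 0.41, limma adjusted p = 0.055) and not those of JAL22 and JAL23. JAL22 kept its call only when WT array 3 or 35S::KLU array 2 was dropped, with a limma adjusted p from 0.082 to 0.14 for the other 4 arrays. JAL23 kept its call only when WT array 1 or 35S::KLU array 2 was dropped, with 0.091 to 0.15 for the others, and JAL33 only when 35S::KLU array 1 was dropped, with 0.060 to 0.12. The count for the list was 0 when WT array 2 or 35S::KLU array 3 was dropped, 1 when WT array 1, WT array 3 or 35S::KLU array 1 was dropped, and 2 when 35S::KLU array 2 was dropped. JAL34 differed by 0.20 (SE 0.12, limma adjusted p = 0.40). NAI2, which encodes a protein needed to form ER bodies, differed by 0.17 (SE 0.10, limma adjusted p = 0.42), and NAI1, the transcription factor gene upstream of it, by 0.02 (SE 0.08, limma adjusted p = 0.92), a value whose sign turned when some arrays were left out.

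In the jacalin-lectin family as a whole, 20 of 46 listed genes other than AT1G52000 were measured, of which 4 rose, 0 fell and 16 did not pass (median difference 0.03). Beside JAL22, JAL23 and JAL33 the fourth was AT1G73040, with levels of 5.52, 5.29 and 5.53 in WT and 7.25, 7.26 and 7.26 in 35S::KLU. It rose 3.52-fold (difference 1.81, SE 0.08, limma adjusted p = 4.6e-06), and lay between 1.74 and 1.86 when each array was left out. The 16 others had differences from -0.18 to 0.30, and 8 of them had a mean below the lower quartile. Counting AT1G52000, which was chosen from this contrast, 5 of 21 measured family genes were past the threshold with all arrays, all higher. Of all genes 3.51% were called higher, and nothing is read from the count with AT1G52000 beside that share. This count was 2 when WT array 2 or 35S::KLU array 3 was dropped, 3 when WT array 1 or WT array 3 was dropped, and 4 when either of the other arrays was dropped. The count over all probe sets changed too, from 1893 to 906 without WT array 2, 1142 without 35S::KLU array 3 and 1962 without WT array 1.

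**Figure D4:**
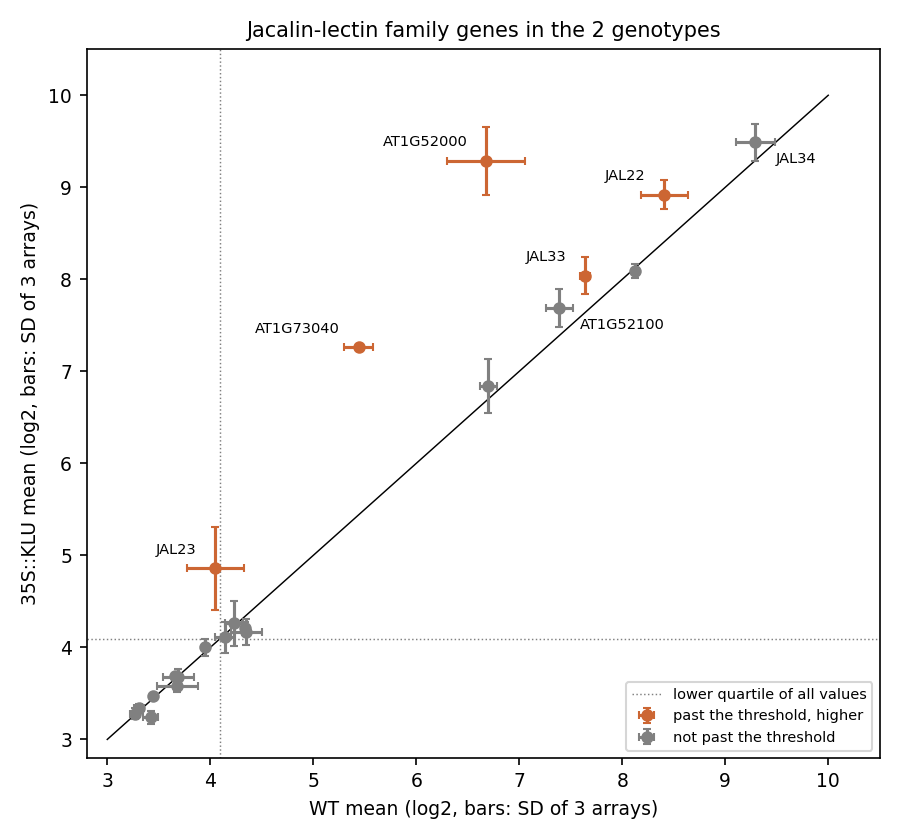
Each point is 1 jacalin-lectin family gene, with its WT mean on the horizontal axis and its 35S::KLU mean on the vertical axis (log2, bars are SDs of 3 arrays), orange where past the threshold. AT1G52000 and AT1G73040 stand well above the line of equal levels, JAL22, JAL23 and JAL33 a little above it, and the other 16 genes lie along it.

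AT1G52000 lies in a run of such genes in the RefSeq gene order of TAIR10.1, where AT1G52050, AT1G52060, AT1G52070 and AT1G52100 are 3, 4, 5 and 7 protein-coding genes away. These measured neighbours did not pass the threshold, with differences of -0.10, -0.18, -0.18 and 0.30 (limma adjusted p = 0.63, 0.34, 0.19 and 0.16). The nearest family genes, AT1G52030 and AT1G52040 (1 and 2 protein-coding genes away), had no single-gene probe set in the annotation. Neither had AT1G52110, AT1G52120 and AT1G52130 (8, 9 and 10 away), so the run was seen only in part. AT1G52050 and AT1G52070 had means below the lower quartile, and the sign of AT1G52050 turned under array weights and without 1 array. AT1G52100 had levels of 7.29, 7.35 and 7.54 in WT and 7.46, 7.72 and 7.89 in 35S::KLU, which overlap, and it passed when 35S::KLU array 1 was dropped (limma adjusted p = 0.049). JAL22 and JAL23 are 2 protein-coding genes apart, and JAL33 and JAL34 are adjacent.

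The few measured relatives of the synthesis genes showed no call. With 6.85% of all genes called in either direction, nothing is read from this. Of 7 branched-chain aminotransferase genes 3 were measured, and beside BCAT4 these were ATBCAT-5, with a difference of 0.25 (SE 0.09, limma adjusted p = 0.13), and AT1G50110, with -0.23 (SE 0.13, limma adjusted p = 0.36). The arrays of ATBCAT-5 did not overlap, at 8.33, 8.22 and 8.13 against 8.41, 8.61 and 8.39. Of 7 genes of the UGT74 glucosyltransferase group 4 were measured, AT2G31790 among them. UGT74D1, which is 4 protein-coding genes from AT2G31790 and acts on auxin-related compounds, was at 8.28, 8.40 and 8.39 in WT and 8.10, 8.18 and 8.12 in 35S::KLU (difference -0.22, SE 0.07, limma adjusted p = 0.090). Its arrays did not overlap and lay in the opposite order to those of BCAT4, without passing the threshold. The share of all genes with such lower values was not counted.

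PYK10 is known as a gene of roots, so markers of other cells are given beside it. Of 17 root markers 2 were measured, the root-hair expansin genes EXPA7 and EXPA18, and 0 were past the threshold. EXPA7 differed by -0.17 (SE 0.09, limma adjusted p = 0.29) and EXPA18 by -0.07 (SE 0.13, limma adjusted p = 0.81), the second changing sign when some arrays were left out. Their summed level (log2) ranged from 5.50 to 5.74 in WT and from 5.40 to 5.62 in 35S::KLU, which overlap. Each gene alone was dim. EXPA7 had means of 4.22 in WT and 4.05 in 35S::KLU, beside 4.09 for the lower quartile of all values. EXPA18 had means of 4.87 and 4.80. RMA understates changes at low levels, so these 2 genes say little about root cells. The part of root cells in the PYK10 difference was not tested. Of 7 markers of guard and myrosin cells, the cells that hold classical myrosinases, 1 was measured. This was FMA, whose product FAMA directs their formation, with levels from 5.62 to 5.94 in WT and from 5.57 to 5.65 in 35S::KLU (difference -0.14, SE 0.09, limma adjusted p = 0.44). The shoot was represented by 5 of 12 photosynthesis markers, with a summed level of 15.78 to 15.85 in WT and 15.77 to 15.79 in 35S::KLU. In such whole-shoot samples, more cells of a type and more RNA per cell cannot be told apart.

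Across the 6 arrays the levels of the genes ran together to different degrees, which the genotype difference they share sets in part. Pearson's r was 0.95 for AT1G52000 with BGLU25, 0.91 for AT1G52000 with BCAT4, 0.84 for AT1G52000 with PYK10 and 0.83 for BGLU25 with PYK10. AT2G31790 stood apart, with r between -0.10 (PYK10) and 0.59 (BCAT4). WT array 3 was the highest of WT for PYK10, BGLU25 and AT1G52000 and the lowest for BCAT4 and AT2G31790.

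Among 9453 genes with a mean above the lower quartile, those most like each gene over the 6 arrays were listed by r. For AT1G52000 they were AT5G02940 (r = 0.999), AT2G16710 (0.999) and AT5G39410 (0.996), whose own differences were 0.61, 0.27 and 0.62. BCAT4 was most like the HAL2-like gene HL (0.996), AT2G43540 (0.995) and AT4G35220 (0.992), which differed by 0.38, 0.35 and 0.30. For BGLU25 they were AT1G67920 (0.993), AT5G16550 (0.989) and AT1G60000 (0.985), and for PYK10 AT3G10200 (0.989), AT1G28100 (0.983) and AT5G55360 (0.979). AT2G31790 was closest to GH9B13, a glycosyl hydrolase family gene (0.974), AT1G49700 (0.972) and AT5G06830 (0.968). With so many genes and 6 arrays, high values of r occur for some gene in any case, and they are a description of these arrays.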

How the data were processed

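Shoot RNA of 3 WT and 3 35S::KLU seedling pools was measured on single-colour Affymetrix ATH1 arrays. The authors deposited 1 log2 value per probe set and array, made with RMA (version not stated) per the submitters' processing notes. RMA corrects background, normalizes quantiles and compresses small signals. Array medians lay between 6.01 and 6.05. No detection calls were used here.

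Of 22810 probe sets 64 controls were left out. Of the other 22746, the platform annotation names 1 gene for 13513, several genes for 503 and no gene for 8730, and 13436 matched RefSeq (TAIR10.1). Gene positions are not given, since no build is named. Genotypes were compared with limma 3.58.1 in R 4.3.3 (lmFit, eBayes, two-sided, Benjamini-Hochberg over all probe sets, threshold 0.05). A check on simulated data required recovery only of changes larger than every difference given here except that of AT1G52000. It therefore says little about calls at smaller differences. Tables used Python 3.11.15 and pandas 2.3.3, figures matplotlib 3.10.9. From each of 14 lists at most 6 genes past the threshold and 3 not past it were named, more in the families of the 5 genes, and 3 likest genes per gene. The genes and lists were chosen with earlier results of these data known. The 14 alternatives changed scaling, weights, block, arrays, filter, eBayes settings or probe-set summary. The number of arrays limits precision. Per the series' design text the genotypes shared plates in independent experiments; the labels do not say that a replicate number marks an experiment, and same-numbered arrays had deviations correlated at -0.20, 0.04 and -0.06. The fit without the replicate block was kept as the main one.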

Additional observations from a re-analysis of the deposited data

How the results depend on the processing

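Directions of the 5 genes held under all 14 alternatives, and so did the calls of BCAT4 (0.40 to 0.50), AT1G52000 (2.45 to 2.82) and, past no threshold, AT2G31790 (0.04 to 0.15). For the directions many alternatives were no test. The replicate block, the filter, the eBayes settings and the probe-set summary could not change the differences of the 5 genes. Dropping 1 array could not turn the sign of a gene whose genotypes did not overlap. PYK10 became past the threshold with array quality weights, the replicate block and eBayes with trend and robust fitting (0.43 each), and ran from 0.31 to 0.56 on leaving out each array. BGLU25 lost its call under median-centring (0.34), and with the replicate block (0.33), and leaving out each array gave 0.28 to 0.39. Probe sets past the threshold numbered 1893 (922 higher, 971 lower), 2978 with weights (1433 and 1545), 1279 with the replicate block (632 and 647) and 906 to 1962 without 1 array (447 to 1030 and 459 to 932). The lowest counts were 906 when WT array 2 was dropped, 1142 for 35S::KLU array 3, 1219 for 35S::KLU array 2 and 1236 for WT array 3. In BGLU18 to BGLU33 the genes called higher were 1, but 0 under median-centring, 2 with weights, 2 with trend and robust fitting and 0 to 1 without 1 array. In the other beta-glucosidases weights gave 1 higher, and 0 to 1 were lower without 1 array. Weights also gave 1 lower UGT74 gene. The ER body list had 0 to 2 and the jacalin family 2 to 4 higher genes without 1 array, against 3 and 5. With the replicate block JAL33 and AT2G25450 lost their calls (adjusted p = 0.055 and 0.078), and with trend and robust fitting JAL23 did (0.10). Signs turned near 0 for AT1G52050 (0.00 with weights, -0.19 to 0.00 without 1 array), EXPA18 (0.01 with weights, -0.20 to 0.03) and NAI1 (-0.03 to 0.08). The cause was not tested. Of the 5 genes and the list genes named, the replicate block changed no call other than those of PYK10, BGLU25, JAL33 and AT2G25450. Background correction could not be varied from summarised values.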
